A study of Mus musculus with 2 samples.

Results

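Among cells dissociated from the mouse ventral parafacial region, 71 of 12395 filtered cells were glutamatergic neurons outside the retrotrapezoid and catecholamine groups. They were chosen by a gate on unique molecular identifiers (UMIs, counts of single captured transcripts). A member had at least 1 UMI of *Slc17a6* or *Slc17a7*, which encode the vesicular glutamate transporters VGLUT2 and VGLUT1, and at least 3 UMIs in all of the neuronal genes *Snap25*, *Syp*, *Tubb3* and *Elavl2*. It had at most 1 UMI of *Nmb*, which marks the chemosensitive neurons of the retrotrapezoid nucleus. It had no UMI of the monoamine genes *Th*, *Dbh*, *Slc6a2* and *Tph2*, of the vesicular GABA transporter gene *Slc32a1*, or of the cholinergic genes *Chat*, *Slc18a3* and *Slc5a7*. At most 1 UMI of *Gad1* and *Gad2*, and at most 2 UMIs of the microglial and endothelial genes *C1qa*, *C1qb*, *Cldn5* and *Flt1*, were allowed. All of these genes chose the cells, so their values are given only as a description.

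The cells came from wild type C57BL6/J mice at 10 days of age, in 2 libraries of the 10X Chromium system with version 2 chemistry. The untreated library and the 4OH-tamoxifen library each pooled 8 mice (4 male and 4 female), and the mice of the second were dosed daily with 0.2 mg of 4OH-tamoxifen on 3 days. Each condition was 1 library, so condition, library and any batch cannot be told apart and no test between them was possible. The tissue was cut by hand from brainstem slices of 300 µm, so a group's share of cells also depends on where the cut fell and which cells lived through dissociation.

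Glutamatergic neurons load glutamate into synaptic vesicles through a vesicular transporter. In the hindbrain most of them use *Slc17a6*, while neurons of the rhombic lip lineage, such as cerebellar granule cells and precerebellar neurons, often use *Slc17a7*. Near the ventral medullary surface they include the carbon dioxide-sensing neurons of the retrotrapezoid nucleus, which carry *Nmb*, and other neurons of the respiratory and reticular networks, many of which also release peptides such as substance P.

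The promoters of peptide genes are shown first, because a peptide gene, *Tac1*, led the largest cluster of these neurons. The 5 genes shown are examples picked after their values and sequences were seen, and each holds the motif described next. In the lines that follow, each sequence is the 150 bases before the RefSeq start of a gene in GRCm38.p6, 5′ to 3′ on the strand of the gene, and the capitals mark the core of the cAMP response element, TGACG on the sense strand or its reverse complement CGTCA, or the whole palindrome TGACGTCA, which holds both. The windows lie at chr6:7554911-7555060 on the plus strand for *Tac1*, chr16:23890845-23890994 on the minus strand for *Sst*, chr10:5639068-5639217 on the plus strand for *Vip*, chr17:93198867-93199016 on the plus strand for *Adcyap1* and chr9:121495695-121495844 on the minus strand for *Cck*.
Tac1: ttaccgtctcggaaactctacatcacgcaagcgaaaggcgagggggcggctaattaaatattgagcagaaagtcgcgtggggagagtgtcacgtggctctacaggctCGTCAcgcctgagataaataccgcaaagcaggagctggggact
Sst: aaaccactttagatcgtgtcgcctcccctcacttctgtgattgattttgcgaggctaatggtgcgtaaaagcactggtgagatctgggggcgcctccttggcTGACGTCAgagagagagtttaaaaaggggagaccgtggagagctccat
Vip: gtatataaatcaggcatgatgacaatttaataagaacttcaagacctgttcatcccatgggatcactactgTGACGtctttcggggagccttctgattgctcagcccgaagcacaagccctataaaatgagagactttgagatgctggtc
Adcyap1: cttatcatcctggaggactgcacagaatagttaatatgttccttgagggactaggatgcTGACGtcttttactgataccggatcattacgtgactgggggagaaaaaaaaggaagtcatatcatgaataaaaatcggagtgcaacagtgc
Cck: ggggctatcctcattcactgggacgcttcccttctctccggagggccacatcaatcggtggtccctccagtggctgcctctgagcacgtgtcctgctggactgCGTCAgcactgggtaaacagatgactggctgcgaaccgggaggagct

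The marked core began 43 bases before the start of *Tac1*, 48 before *Sst*, 79 before *Vip*, 91 before *Adcyap1* and 47 before *Cck*. A second RefSeq start of *Adcyap1* had no core in its window. Over all 32851 promoter windows of that length, 13.3% held TGACG on either strand and 1.36% held TGACGTCA. Of 37 genes on the list of neuropeptides, 29 had a promoter entry and 11 of these held the core. *Gal*, described further on, was among the entries without it, and *Penk* had no entry. These matches are a description of letters and not of binding.

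The filtered cells were those with at least 800 genes, at most 50 hemoglobin UMIs and at most 20% mitochondrial UMIs, which kept 12395 of 14008 deposited barcodes. The untreated library gave 9 of the neurons among 3345 filtered cells (0.269%, 95% interval 0.123 to 0.510), and the 4OH-tamoxifen library gave 62 among 9050 (0.685%, 0.526 to 0.877). Intervals are exact binomial for shares, exact Poisson for levels and exact conditional for ratios, and all cover counting error only. The share was 2.55 times as high in the 4OH-tamoxifen library (1.26 to 5.83), where the *Nmb* neurons of the same gate stood at 1.01 times (0.576 to 1.84) inhibitory neurons at 1.59 times (1.21 to 2.11) and microglia at 0.576 times (0.496 to 0.669). Whether treatment, batch or dissection set this ratio cannot be told apart. Of 40 barcodes found in both libraries, 0 were among these neurons.

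The 71 cells held 340899 UMIs, 66873 of them untreated, and the median cell had 4144 UMIs from 2155 genes. The untreated cells ranged from 1964 to 22964 UMIs (median 5067) and the 4OH-tamoxifen cells from 1546 to 9467 (median 4108). One untreated cell stood far above the rest and supplied 34.3% of the UMIs of its group. Scrublet, a doublet caller, marked 6 untreated and 544 4OH-tamoxifen barcodes, of which 5 were among these neurons, all from the 4OH-tamoxifen library. Its score threshold was set for each library and differed, at 0.512 untreated and 0.179 4OH-tamoxifen. At 0.179 in both, 114 untreated barcodes would be marked, with 1 of the 9 untreated neurons among them.

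Many of the cells lay near the edges of the gate. The single UMI that admits a cell was all that 19 of the 71 had for the transporters, and 429 cells failed on that criterion alone. With 3 neuronal UMIs in all, 7 cells passed, and 13 cells stood just outside with 2. Exactly 1 *Nmb* UMI was found in 9 members, while 3 cells with 2 stood just outside and 67 cells failed on *Nmb* alone. Those 67 cells are the *Nmb* neurons used for comparison here, and the inhibitory neurons are 350 cells with *Slc32a1* and no *Slc17a6* or *Slc17a7*, under the same limits on neuronal, monoamine, cholinergic, microglial and endothelial genes and with no limit on *Gad1*, *Gad2* or *Nmb*. The monoamine limit alone turned away 5 cells and the cholinergic limit alone 44.

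*Slc17a6* was the transporter of most of the cells. It was found in 7 of 9 untreated and 58 of 62 4OH-tamoxifen cells, with 1 to 17 UMIs and a median of 4 per cell that had it. Summed over cells, its level per 1000000 UMIs (CPM) was 748 for untreated cells and 912 for 4OH-tamoxifen cells. The *Nmb* neurons, whose transporter was chosen by the same rule, held 618 and 803 CPM. *Slc17a7* was found in 10 cells (14.1%, 6.97 to 24.4), 2 untreated and 8 4OH-tamoxifen, at 29.9 and 65.7 CPM. It was sparse, with 1 UMI in 6 of the 10 cells, and only 4 cells (5.63%) had 2 or more. Both transporters occurred together in 4 cells, and 6 cells had *Slc17a7* alone. *Slc17a8*, the gene of VGLUT3, had a UMI in 1 cell.

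Marker genes of the group that the gate did not use were described next. They were chosen with earlier results of these data known, so their presence is no test of the label. *Tac1*, the substance P precursor gene, was found in 12 cells, *Zic1*, a transcription factor gene of the dorsal hindbrain and rhombic lip, in 10 cells, and *Grp*, the gastrin-releasing peptide gene, in 9 cells. At least 1 of the 3 was present in 28 cells and none in 43, so these markers described a minority of the group. Microglia of the same libraries, which should lack these genes, had a UMI of *Tac1* in 1.06%, of *Zic1* in 1.06% and of *Grp* in 0.133% of 752 cells at a median depth of 2994.5 UMIs. After each cell was thinned to 2000 UMIs, which left out 5 shallower members, the shares among the neurons were 16.7%, 13.6% and 9.09%, against 16.9%, 14.1% and 12.7% without thinning. Of the 6 serotonergic marker genes outside the gate, 0 reached 50 CPM in at least 10% of the cells, beside 19.4% of all genes. *Fev* had no UMI, and 0 of 6 genes is not read as a result.

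**Figure D1:**
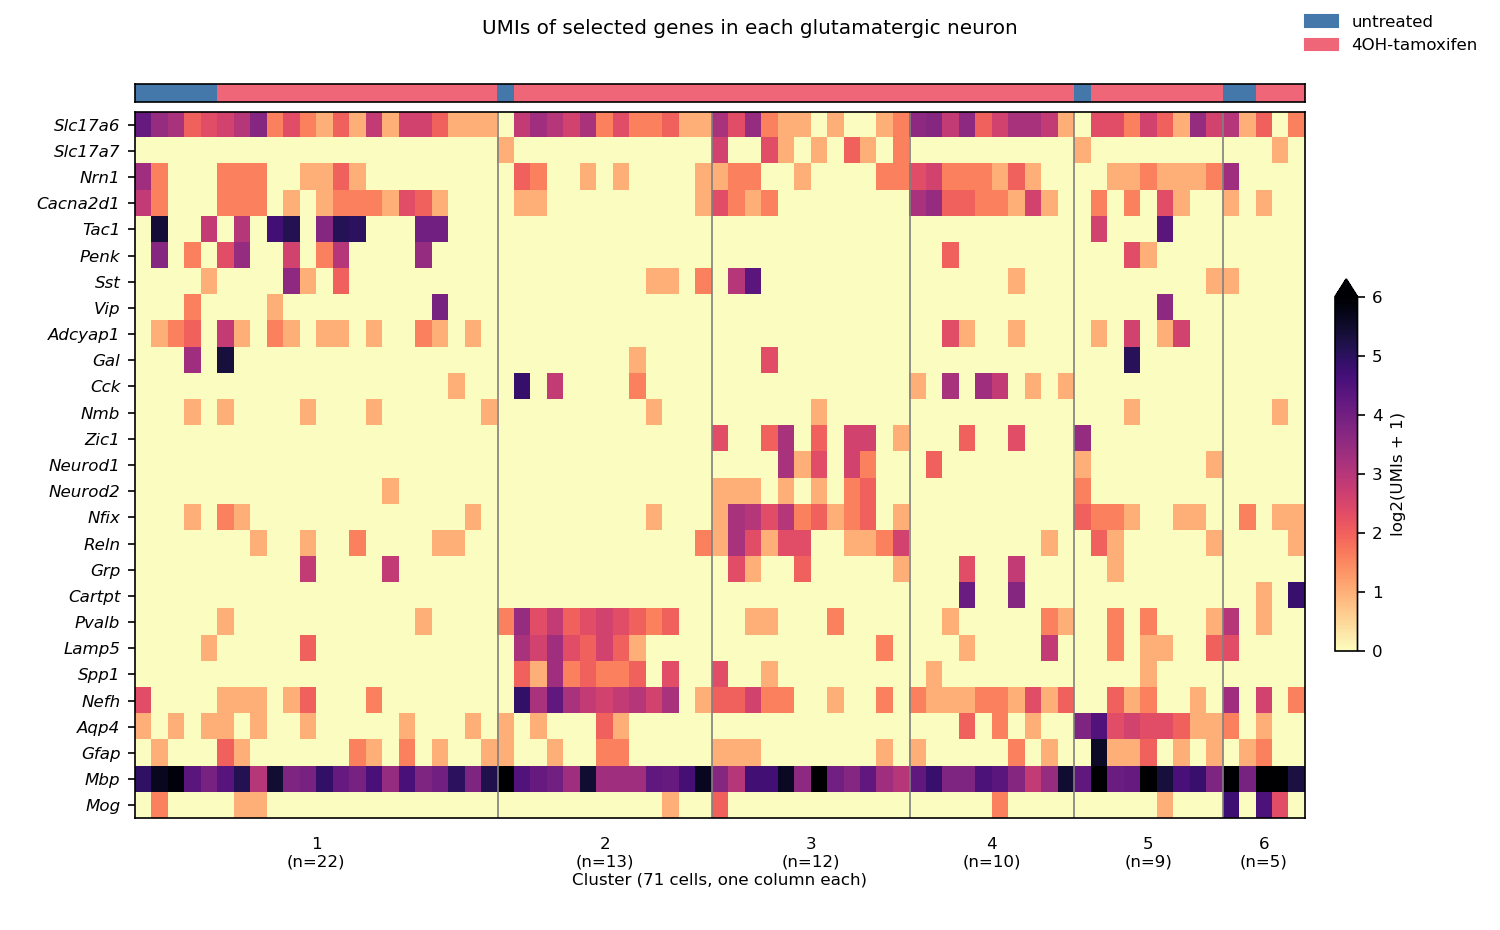
UMIs of selected genes in each of the 71 glutamatergic neurons, one column per cell, ordered by cluster, with colour giving log2(UMIs + 1) and the strip above giving the library. *Slc17a6* runs across nearly all columns, *Tac1* is dense in cluster 1, *Pvalb* and *Nefh* in cluster 2, *Slc17a7*, *Zic1* and *Reln* in cluster 3, and the glial genes *Aqp4* and *Mog* in clusters 5 and 6.

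Of the 37 peptide genes on the list, 7 reached 50 CPM in at least 10% of the cells, beside 19.4% of all genes with a UMI in filtered cells, and 11 had no UMI, beside 35.9% of all those genes. The list holds *Nmb*, a gene of the gate, and *Agt*, the angiotensinogen gene, which is also on the astrocyte list and was highest in the cluster led by astrocyte genes described below. Without that pair, 6 of 35 reached the level, and no peptide gene was present in 18 cells, 1 in 17 cells and 2 or more in 36 cells. At least 1 UMI of these genes was thus found in 74.6% of the neurons, against 89.4% of inhibitory neurons, 89.6% of *Nmb* neurons and 16.6% of microglia, and in 62.1%, 80.1%, 81.2% and 11.9% after thinning to 2000 UMIs. *Tac1* had the highest level, at 703 CPM in 2 of 9 untreated cells and 715 CPM in 10 of 62 4OH-tamoxifen cells (713 over both, 626 to 808). A cell with *Tac1* had 5 to 41 UMIs of it, with a median of 17, so none of the 12 cells rested on a stray UMI.

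Peptide genes found together with *Tac1* were counted next. *Penk*, which encodes the enkephalins, was present in 6 of the 12 and in 5 of the other 59 cells. *Sst* (somatostatin) was in 3 and 9 of them, and *Vip* (vasoactive intestinal peptide) in 3 and 1. At least 1 of these 3 genes was in 10 of the 12, 2 untreated and 8 4OH-tamoxifen. The rate of that set in the other cells was not counted. *Adcyap1*, which encodes the peptide PACAP, was found in 10 of the 12 (83.3%) and in 16.9% of the other 59 cells. *Scn3b*, a sodium channel beta subunit gene, followed it at 83.3% and 18.6%. None of the 12 had *Gal*, *Cck*, *Zic1*, *Grp* or *Slc17a7*. These were in 5, 10, 10, 9 and 10 of the other 59 cells, so 0 of 12 is not read as a result. The shares of *Adcyap1* and *Scn3b* were ranked over all genes among the same cells, and all of these counts are a description.

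Over all cells *Penk* stood at 209 CPM untreated and 168 CPM 4OH-tamoxifen, and *Adcyap1* at 89.7 and 128 CPM. *Adcyap1* was found in 20 cells, but with 1 UMI in 12 of them. *Sst* differed more between the libraries, with 29.9 CPM untreated and 172 CPM 4OH-tamoxifen, and 7 of its 12 cells had 1 UMI. *Cck*, the cholecystokinin gene, was in 0 of 9 untreated cells, where a count of 0, taken to allow up to 3 cells, still permits 33.3%, and in 10 of 62 4OH-tamoxifen cells at 230 CPM. *Grp* was likewise in 0 untreated cells and 9 4OH-tamoxifen cells, at 117 CPM, with 1 to 6 UMIs per cell. *Gal*, the galanin gene, was confined to 5 of the 71 cells, 1 untreated and 4 4OH-tamoxifen, with 1 to 39 UMIs.

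*Zic1* was the next marker described, and no cell had both it and *Tac1*. *Tac1* was in 16.9% of all 71 cells, so 0 of the 10 *Zic1* cells is not read as a separation. The 10 *Zic1* cells, 1 untreated and 9 4OH-tamoxifen, had 1 to 10 UMIs of it (median 4), and its level was 150 CPM and 131 CPM in the libraries. *Slc17a7* was present in 8 of them, and 4 of those 8 had no *Slc17a6*. *Neurod1* or *Neurod2*, transcription factor genes of differentiating and mature excitatory neurons, were found in 6 of the 10, *Reln* (reelin) in 6 and *Calb2* (calretinin) in 4. *Fabp3*, a fatty acid-binding protein gene, was in all 10 and in 26.2% of the other cells, and *Nfix*, a nuclear factor I gene, in 80% and 27.9%. *Grp* overlapped with *Zic1* in 3 cells, of which 2 also had *Cartpt*, the CART peptide gene.

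The genes whose detection differed most with *Slc17a6* were ranked over all genes in the same way, and they describe these cells only. In the 6 cells with *Slc17a7* alone, *Thy1*, a surface glycoprotein gene of mature neurons that ranked first, had no UMI, while it was found in 90.8% of the *Slc17a6* cells. *Syp*, the synaptophysin gene and one of the genes of the gate, was in 16.7% and 92.3%. Their median depth was 3147 UMIs, against 4144 for the cells with *Slc17a6* alone.

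*Pvalb*, the parvalbumin gene, was found in more of the neurons than any of the 3 markers above, in 2 untreated and 22 4OH-tamoxifen cells at 135 and 219 CPM. It had 1 to 10 UMIs per cell, with a median of 2. Of these 24 cells, 21 also had *Nefh*, the heavy neurofilament gene, 20 had *Syt2*, a fast synaptic calcium sensor gene, and 13 had *Lamp5*, a lysosomal membrane protein gene known from interneurons. *Lamp5* was present in 18 cells, at 74.8 CPM untreated and 208 CPM 4OH-tamoxifen. The 13 cells with both had a median of 15.2% mitochondrial UMIs, against 10.4% for the whole group, and whether that bears on the pattern was not tested. With at most 10% mitochondrial UMIs the share with *Pvalb* was 21.2% in place of 33.8%, and that with *Lamp5* 12.1% in place of 25.4%.

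When the 71 cells were clustered on 990 variable genes, 6 clusters resulted. Clusters 1 to 3 were those of the *Tac1*, *Pvalb* and *Slc17a7* genes above, cluster 4 had other leading genes, and clusters 5 and 6 were led by glial genes. Since the clustering used the genes that describe the clusters, the levels below are a description. Cluster 1 held 22 cells (5 untreated, 17 4OH-tamoxifen) and was led by *Tac1*, *Penk*, *Gpx3*, *Gabre* and *Slc7a3*. *Tac1* was in 10 of its cells, at 2352 CPM against 96.9 CPM in the other cells, and *Adcyap1* in 13, while *Zic1* and *Slc17a7* had no UMI. All 22 cells had *Slc17a6*.

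Cluster 2 held 13 cells (1 untreated, 12 4OH-tamoxifen) and was led by *Maf*, *Sema7a*, *Plk5*, *Stac2* and *Igf1*. Most of the *Pvalb* signal lay there, with 11 of 13 cells at 748 CPM against 82.3 CPM elsewhere. *Nefh* stood at 1643 against 258 CPM, *Syt2* was in 11 cells, *Hapln1*, which encodes a link protein of the perineuronal net, in 10, *Spp1* (osteopontin) in 9 and the potassium channel gene *Kcna1* in 8. *Tac1*, *Zic1* and *Adcyap1* had no UMI in the cluster. Its median mitochondrial share, 13.7%, was the highest of the 6 clusters.

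Cluster 3 held 12 cells, all from the 4OH-tamoxifen library, and was led by *Slc17a7*, *Gm2694*, *Neurod1*, *Zfpm2* and *Neurod2*. *Slc17a7* was in 7 cells at 319 CPM against 10.4 CPM elsewhere, *Zic1* in 7 at 543 against 59.1 CPM, *Reln* in 10, and *Nfix* and *Nfib* in 11 each. Of 14 markers of cerebellar granule cells, 12 were at least 2-fold higher in the cluster after 10 CPM was added and present in at least 10% of its cells, beside 7.25% of all genes with a UMI in members, and *Gabra6*, which encodes the GABA receptor subunit of mature granule cells, was found in 3 of its 12 cells and in 0 other members. Part of the cluster was therefore called granule cell-like. *Slc17a7* and *Zic1* were each in 7 of its 12 cells, while 9 had *Slc17a6*. *Sst*, not on that list, stood at 487 against 80.0 CPM, with 19 and 7 UMIs in 2 cells that had neither *Slc17a7* nor *Zic1*. *Neurod1*, *Zic1* and *Reln* of the list were also leading genes of the cluster, which was formed on these same data. No untreated member fell in the cluster, where 0 of 9 still permits a share of 33.3%. One untreated member had the same genes, with 10 UMIs of *Zic1*, 3 of *Nfix*, 2 of *Neurod2*, 1 each of *Slc17a7* and *Neurod1* and none of *Slc17a6*, but it had 13 UMIs of *Aqp4* and was placed in cluster 5.

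Cluster 4 held 10 cells, again all from the 4OH-tamoxifen library, and was led by *Arhgap36*, *Serpinf1*, *Tpbg*, *Lhx2* and *Hgsnat*. *Tpbg*, which encodes the trophoblast glycoprotein, was in 7 cells at 1132 CPM against 104 CPM elsewhere, *Cck* in 6, *Nrn1* in 8 and *Cacna2d1* in 9. All 10 cells had *Slc17a6*, at 1386 CPM. No list gave this cluster a name.

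The last clusters were led by glial genes. Cluster 5 held 9 cells (1 untreated, 8 4OH-tamoxifen) led by *Cldn10*, *Aqp4*, *Gja1*, *Htra1* and *Phkg1*, and 10 of 10 astrocyte markers were higher in it by the same rule (12.6% of all genes), with *Aqp4*, the astrocytic water channel gene, in all 9 cells at 1542 against 75.5 CPM. Cluster 6 held 5 cells (2 untreated, 3 4OH-tamoxifen) whose leading genes included *Mal*, *Cldn11*, *Adamts4* and *Mog*, and 9 of 10 oligodendrocyte markers were higher in it (13.7% of all genes), with *Mog*, a myelin glycoprotein gene, at 1145 against 37.2 CPM. Of the 5 cells marked as doublets, 4 lay in cluster 5 and 1 in cluster 6. Leaving out these 14 cells left 57 neurons, 6 untreated and 51 4OH-tamoxifen, at 0.460% of filtered cells. The shares with *Tac1*, *Zic1*, *Grp* and *Slc17a7* were then 17.5%, 15.8%, 14.0% and 14.0%.

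**Figure D2:**
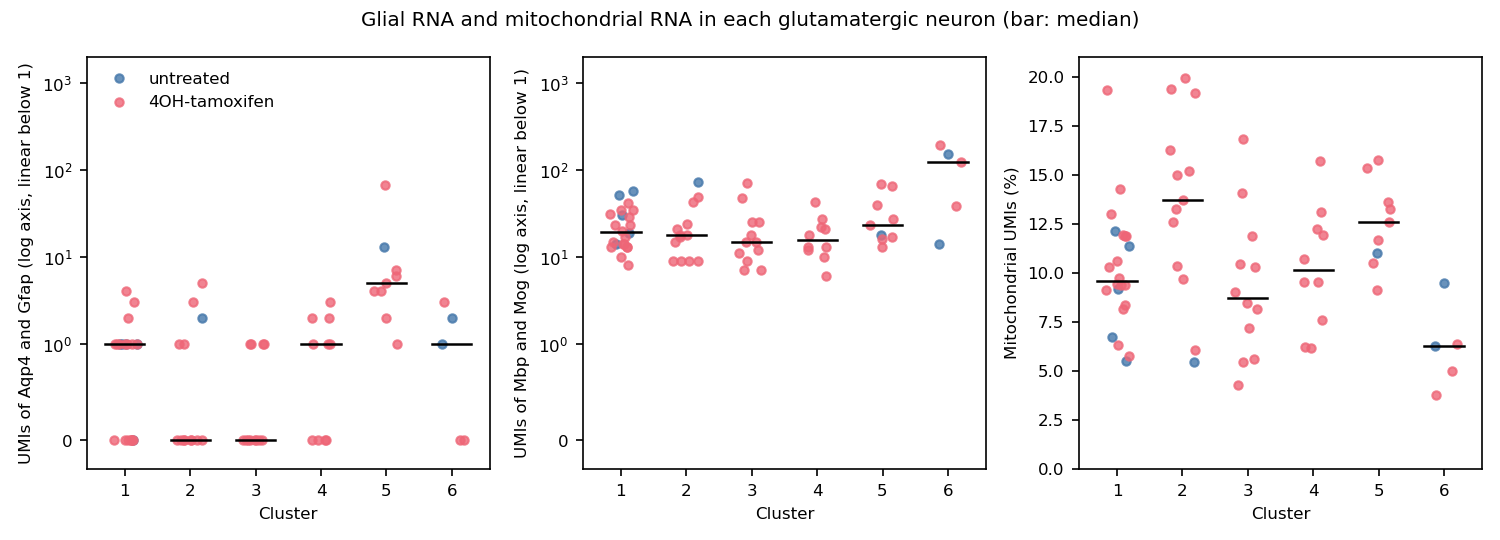
UMIs of *Aqp4* and *Gfap* (left), UMIs of *Mbp* and *Mog* (middle) and percent mitochondrial UMIs (right) in each glutamatergic neuron, by cluster and library, with bars at the median. The median of *Aqp4* and *Gfap* is 5 UMIs in cluster 5 and 0 or 1 in the others, that of *Mbp* and *Mog* is 124 in cluster 6 and 15 to 23 in the others, and mitochondrial RNA is highest in cluster 2.

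Glial transcripts were present in every member. *Mbp*, the myelin basic protein gene, had 6 to 173 UMIs in all 71 cells. The 10 oligodendrocyte markers summed to 13013 CPM, with 24360 untreated and 10244 4OH-tamoxifen, beside 10253 in inhibitory neurons, 7433 in *Nmb* neurons and 22613 in microglia. Without the clusters led by glial genes the sum was 7019 CPM. The 10 astrocyte markers summed to 2306 CPM, beside 2249, 1769 and 2341 CPM in those groups, and to 1462 CPM without those clusters. The part of glial RNA in the comparisons that follow was not tested beyond repeating them without those 14 cells.

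Genes were next compared with the 350 inhibitory neurons (66 untreated, 284 4OH-tamoxifen), to show where the neurons differed from other neurons of the same tissue. With 1 library per condition, a gene was counted only where its level differed at least 2-fold and lay on the same side in both libraries, and where the higher group had at least 50 CPM and 20 UMIs. Of 4170 genes, 104 (2.49%) were higher in the glutamatergic neurons and 124 (2.97%) lower. The median ratio over all these genes was 0.989.

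*Nrn1*, which encodes neuritin, had the ratio with the highest lower bound among genes outside the gate. It stood at 299 CPM in 3 of 9 untreated cells and 215 CPM in 33 of 62 4OH-tamoxifen cells, while the inhibitory neurons held 1.90 and 0 CPM, in 1 of 350 cells. The ratio was 419 (73.1 to 16770), and microglia had a UMI in 0.798% of cells. *Cacna2d1*, the gene of a calcium channel auxiliary subunit that binds gabapentin, stood at 135 and 292 CPM against 1.90 and 5.45 CPM, a ratio of 59.1 (28.7 to 141). Each of the pair was found in 36 of the 71 neurons, and 26 neurons had both. *Ntng1*, which encodes the axon guidance protein netrin-G1, stood at 269 and 164 CPM against 17.1 and 21 CPM, a ratio of 9.29 (6.07 to 14.4). *Nrn1* was found in cells of each cluster.

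Among peptide genes, 5 of the 12 that could be compared were higher than in inhibitory neurons and 4 were lower. Over all genes the shares were 2.49% and 2.97%. *Tac1* stood at 41.6 times the inhibitory level (28.6 to 62.6), from 32.3 and 10.9 CPM in the inhibitory neurons. *Adcyap1* stood at 54.4 times (19.7 to 209), *Vip* at 49.5 times (15.3 to 255), *Gal* at 7.78 times (5.51 to 11.1) and *Penk* at 3.88 times (2.74 to 5.49). *Vip* rested on 4 cells with 28 UMIs, of which 1 cell held 14 and another 11. The cell with 11 was marked as a doublet and lay in cluster 5, led by astrocyte genes. Without the glia-led clusters *Vip* stood at 39.6 times, and with doublets removed at 30.0 times. The ratio of *Gal* rested on 3 cells at the edge of the gate, with 1 *Nmb* UMI each and 80 of its 85 UMIs. In the 62 members with no *Nmb* UMI it turned to 0.513 (0.160 to 1.27), at 16.4 against 32.1 CPM, while *Adcyap1*, *Vip*, *Penk* and *Tac1* stood at 38.7, 51.6, 3.63 and 46.6 times. *Sst* was 7.59-fold lower (5.72 to 10.3), at 1091 CPM over all inhibitory neurons against 144 CPM. Some of these ratios moved by over 1.5 times with the library, to 21.7 untreated and 65.6 4OH-tamoxifen for *Tac1*, 3.54 and 9.37 for *Gal*, and 0.0196 and 0.188 for *Sst*. *Pnoc*, the nociceptin gene, had 2 UMIs in 1 cell, 5.87 CPM against 370 CPM, 63.1-fold lower (17.4 to 522). *Tac2*, the neurokinin B gene, had no UMI and was at least 8.23-fold lower, taking 3 UMIs over the group as the most that a count of 0 allows. The summed level of the whole list was much alike, at 2127 CPM against 2103 CPM.

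Genes that led the inhibitory neurons, beyond those of the gate, were low or without a UMI. *Slc6a5*, the glycine transporter gene of glycinergic neurons, also had 2 UMIs, 5.87 CPM against 359 CPM, 61.2-fold lower (16.9 to 507). *Slc30a3*, which encodes the vesicular zinc transporter ZnT3, had no UMI in either library, while the inhibitory neurons held 352 and 277 CPM in 229 of 350 cells, so that it was at least 33.9-fold lower. *Nr2f2*, the gene of the nuclear receptor COUP-TFII, stood at 0 and 32.8 CPM against 209 and 242 CPM, 8.81-fold lower (4.60 to 19.4). *Fst*, *Dmbx1* and *Skor1* had no UMI and were at least 6.59-fold, 6.15-fold and 6.09-fold lower. Of the 14 transcription factor genes of inhibitory neurons, 8 had no UMI, beside 35.9% of all genes. The pair that could be compared, *Pax2* and *Prox1*, was lower, beside 2.97% of all genes.

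The second comparison set the neurons against the 67 *Nmb* neurons (18 untreated, 49 4OH-tamoxifen), which are glutamatergic by the same gate. Of 3934 genes, 318 (8.08%) were higher and 206 (5.24%) lower, with a median ratio of 1.04. Glial markers moved with this comparison, with 4 of 9 oligodendrocyte markers (median ratio 3.87), 3 of 8 astrocyte markers (1.60) and 3 of 3 oligodendrocyte precursor markers (2.41) higher and 0 lower. Without the 14 cells of the glia-led clusters 212 genes were higher and 201 lower. The list of 12 genes linked to the retrotrapezoid nucleus and its chemosensing, which holds *Nmb* itself, summed to 704 CPM against 13263 CPM, and of the 6 that could be compared 5 were lower and 0 higher. *Nmb* divided the groups, and without it the other 11 genes summed to 678 CPM against 5920 CPM, with 4 of 5 lower and 0 higher.

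*Gal* stood at 135 and 277 CPM against 5404 and 3310 CPM in the *Nmb* neurons, 16.6-fold lower (13.3 to 20.9). *Adcyap1* was 7.76-fold lower (5.58 to 11), from 1292 and 700 CPM. *Gpr4* and *Kcnk5*, the proton receptor and the pH-sensitive potassium channel of retrotrapezoid neurons, had a UMI in 2 and 3 of the 71 cells. *Tmem114* was 22.3-fold lower (11.1 to 52.6), and *Vgf*, a neurosecretory protein gene, 4.66-fold lower (3.65 to 6.01), at 389 and 201 CPM against 1339 and 958 CPM.

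The cells at the edge of the *Nmb* limit held part of what was left of these genes. The 9 members with 1 *Nmb* UMI had 80 UMIs of *Gal* in 3 cells, a level of 2180 CPM, and the 62 members with none had 5 UMIs in 2 cells, 16.4 CPM. *Adcyap1* was in 4 of the 9 and 16 of the 62. Where a single *Nmb* UMI came from, the cell itself or free RNA, was not tested.

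Several genes that stood above the *Nmb* neurons are those of the cells and clusters already described. *Tac1* was 57.1 times as high (22.0 to 211), from 0 and 20.6 CPM, and *Zic1* 43.2 times (7.38 to 1745), from 1 UMI in 1 *Nmb* neuron. *Tpbg* stood at 15 and 317 CPM against 0 and 10.3 CPM, 41.4 times as high (11.1 to 347), *Pvalb* was 21.6 times as high (7.10 to 107) and *Lamp5* 19.4 times (6.35 to 96.8). *Igfbp5*, which encodes a binding protein of insulin-like growth factors, stood at 59.8 and 292 CPM against 0 and 20.6 CPM, 19.7 times as high (7.43 to 74.1). Against inhibitory neurons *Lamp5* and *Igfbp5* were lower, at 0.301 times (0.229 to 0.389) and 0.486 times (0.384 to 0.608). Over both libraries *Tpbg* and *Pvalb* were higher there too, at 4.25 and 3.24 times the inhibitory level. *Nrn1* and *Cacna2d1*, which set the neurons apart from inhibitory cells, were present in both glutamatergic groups, *Nrn1* at 2.01 times the *Nmb* level (1.34 to 3.05) and *Cacna2d1* at 0.436 times (0.335 to 0.563).

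**Figure D3:**
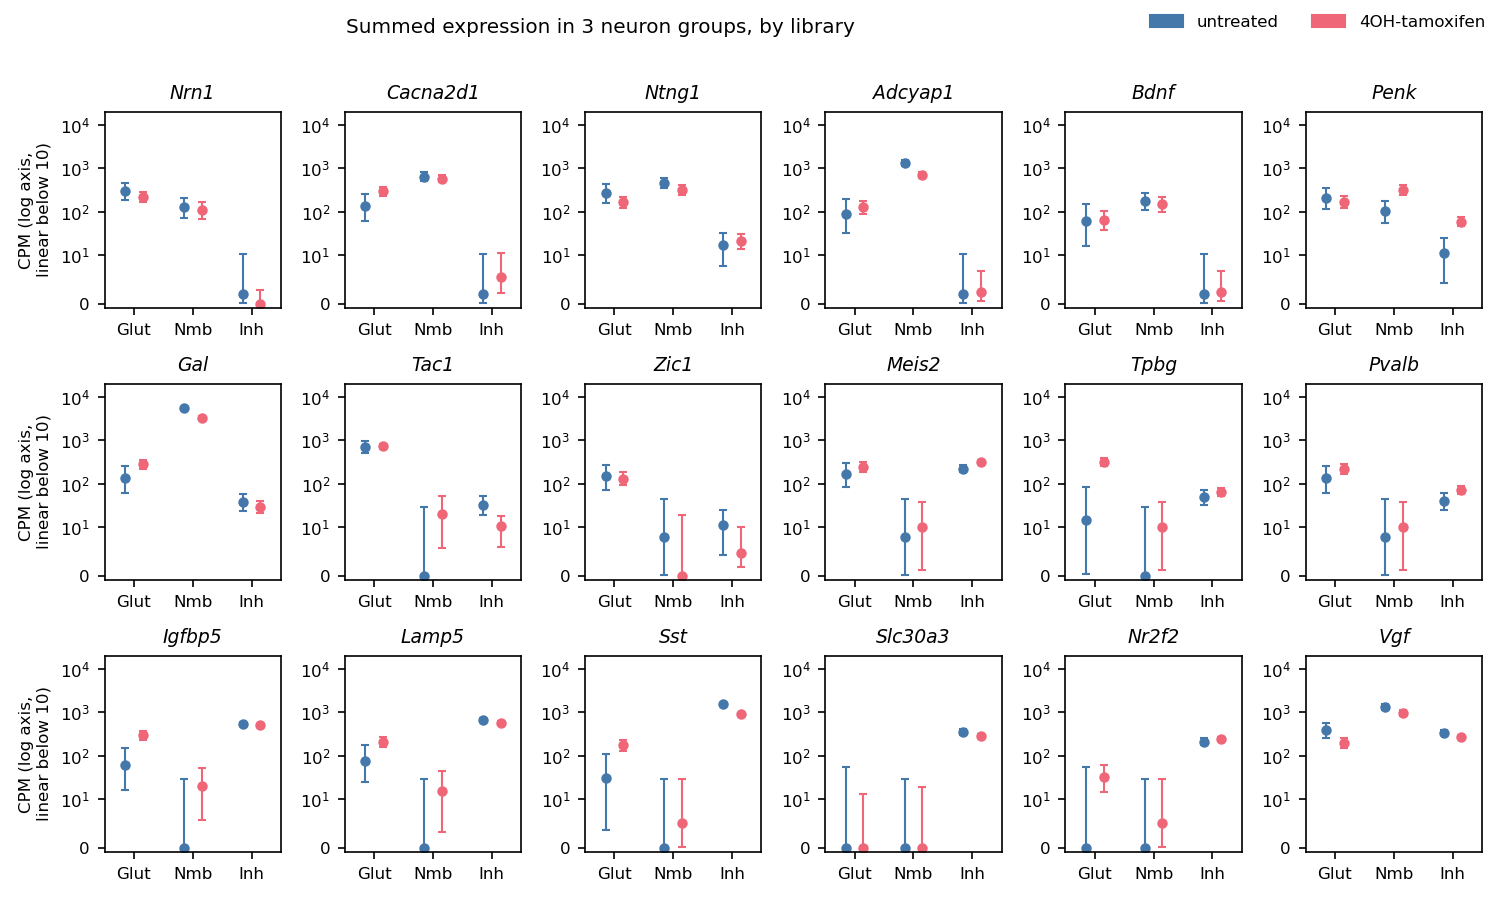
Summed level of 18 genes in CPM (log axis, linear below 10) in glutamatergic (Glut), *Nmb* (Nmb) and inhibitory (Inh) neurons of each library, with exact Poisson 95% intervals. *Nrn1* and *Cacna2d1* are high in both glutamatergic groups and near 0 in inhibitory neurons, *Tac1* and *Zic1* are highest in the glutamatergic neurons described here, and *Slc30a3* is at 0 outside the inhibitory neurons.

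Transcription factor genes separated the groups in both directions. Of the 23 genes of the rhombic lip and precerebellar list, 7 reached 50 CPM in at least 10% of the cells, beside 19.4% of all genes. Against *Nmb* neurons 6 of 8 were higher and 1 lower, with a median ratio of 7.0, beside 8.08% and 5.24% of all genes. Against inhibitory neurons 2 of 7 were higher and 1 lower, with a median ratio of 0.831, beside 2.49% and 2.97% of all genes. *Meis2*, a homeobox gene, stood at 164 and 245 CPM in 34 of the 71 cells against 7.92 and 10.3 CPM in *Nmb* neurons, 24.4 times as high (8.06 to 121), but inhibitory neurons held it at 219 and 320 CPM. *Nfib* was 8.46 times (4.07 to 20.3) and *Nfix* 5.55 times (2.81 to 12.2) the *Nmb* level. *Nfia* stood at 194 and 241 CPM, 3.38 times the *Nmb* level (2.08 to 5.69) and 0.355 times the inhibitory level (0.279 to 0.446). Without the glia-led clusters the ratios over *Nmb* neurons were 8.81 for *Nfib*, 5.56 for *Nfix* and 2.53 for *Nfia*. Microglia also had *Nfia* in 36.4% of cells, so a UMI of it is no mark of a neuron.

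Of 32 transcription factor genes of medullary excitatory neurons, 6 reached that level and 8 had no UMI, among them *Tlx3*, *Lhx3*, *Lhx4* and *Sim1*, where over all genes 19.4% reached it and 35.9% had none. *Tshz2*, a zinc finger gene, was found in 30 cells, at 89.7 and 270 CPM, 15 times the *Nmb* level (6.18 to 47.6). *Ebf1*, a helix-loop-helix gene of differentiating neurons, was found in 15 cells at 105 and 73.0 CPM, 2.39 times the inhibitory level (1.46 to 3.82), and no *Nmb* neuron had it, which makes it at least 8.46-fold higher. *Onecut2* was in 14 cells at 58.7 CPM over both libraries, 3.54 times the inhibitory level (1.90 to 6.44). Hox genes, which mark position along the hindbrain, were too sparse to compare one by one. Their 19 genes summed to 106 CPM, beside 103 CPM in inhibitory and 15.6 CPM in *Nmb* neurons.

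Of 32 voltage-gated channel genes, which carry electrical signalling, 22 reached 50 CPM in at least 10% of the cells, beside 19.4% of all genes with a UMI in filtered cells, and 0 were without a UMI. Against inhibitory neurons 3 of 22 were higher and 0 lower (median ratio 1.16), beside 2.49% and 2.97% of all genes. Against *Nmb* neurons 7 of 24 were higher and 4 lower (median ratio 1.38), beside 8.08% and 5.24% of all genes. *Kcna1*, a low-threshold potassium channel gene, stood at 44.9 and 120 CPM, 2.2 times the inhibitory level (1.45 to 3.27) and 11.3 times the *Nmb* level (3.56 to 57.3). *Cacna1a*, the gene of the P/Q-type calcium channel, was 2.01 times the inhibitory level (1.46 to 2.74). Of the genes lower than in *Nmb* neurons, *Nalcn*, the sodium leak channel gene, stood at 82.1 CPM against 197 CPM and *Scn9a* at 23.5 CPM against 109 CPM.

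**Figure D4:**
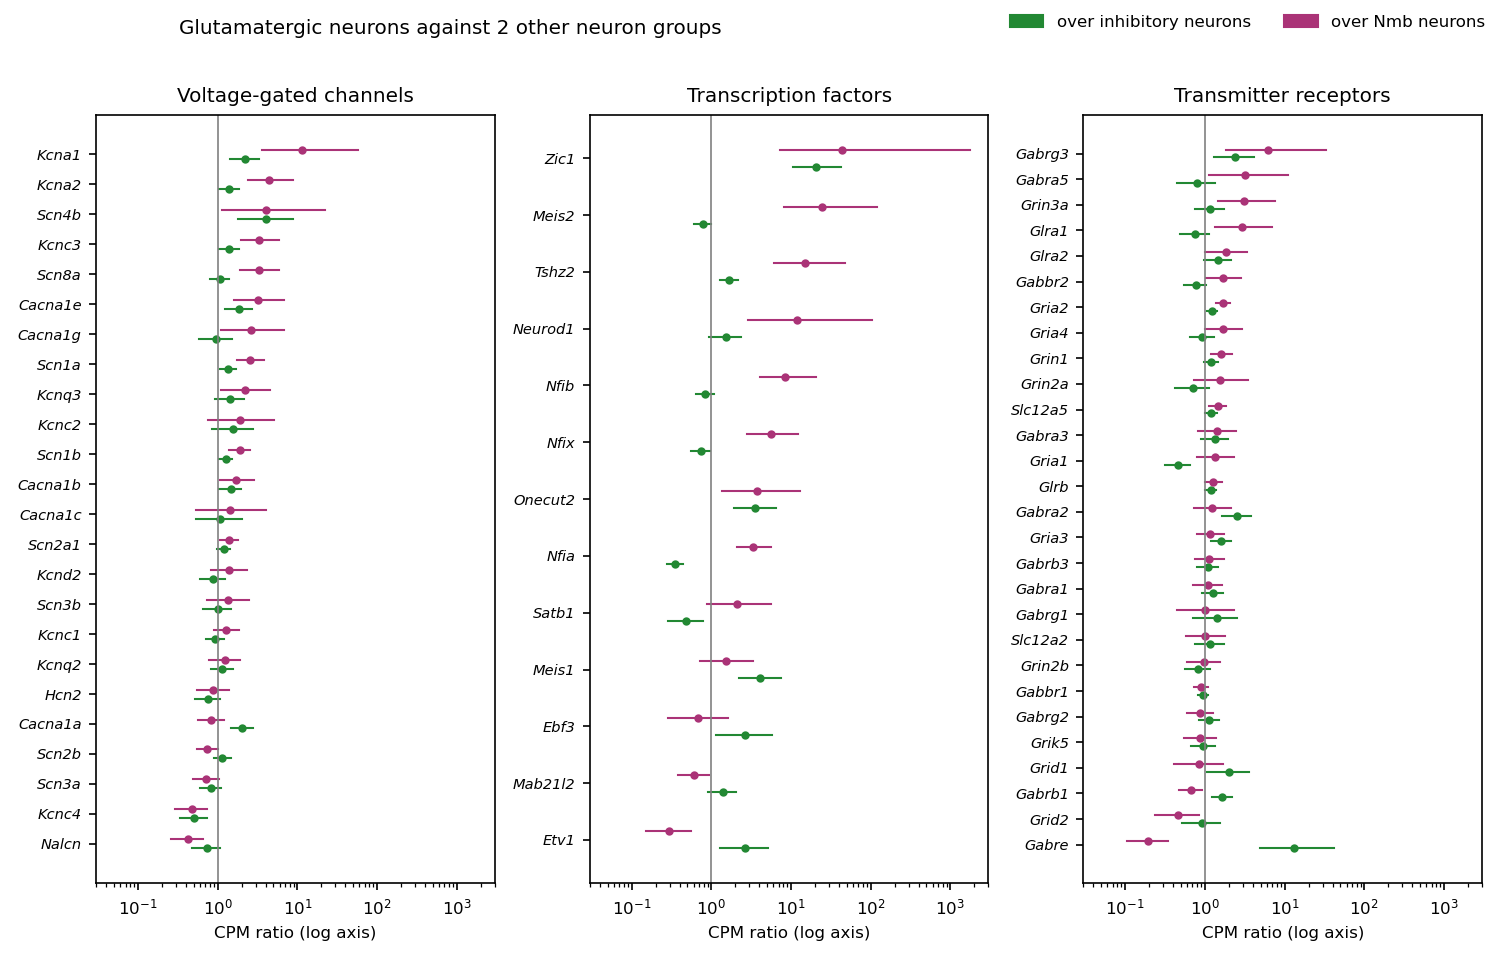
CPM ratio (log axis) of the glutamatergic neurons over inhibitory neurons (green) and over *Nmb* neurons (purple), with exact conditional 95% intervals, for voltage-gated channel, transcription factor and transmitter receptor genes. Among the channels *Kcna1* lies above 1 in both comparisons, *Meis2* lies above 1 over *Nmb* neurons and not over inhibitory neurons, and most transmitter receptors lie near 1.

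*Gria2*, the AMPA receptor subunit gene that limits calcium entry, was found in 64 of the 71 cells, at 628 and 763 CPM, 1.23 times the inhibitory level (1.07 to 1.42). *Gria1* stood at 105 and 106 CPM, 0.457 times the inhibitory level (0.316 to 0.643). Of 18 ionotropic glutamate receptor genes, 0 of 11 were higher and 2 lower than in inhibitory neurons, beside 2.49% and 2.97% of all genes. Of the genes of GABA and glycine receptors 14 of 22 stood at 50 CPM or more in at least 10% of the cells, beside 19.4% of all genes. Of 15 compared, 2, *Gabra2* and *Gabrg3*, were higher than in inhibitory neurons, beside 2.49% of all genes. *Gabre*, a GABA receptor subunit gene found in 12 cells, stood at 59.8 and 40.1 CPM, against 325 and 160 CPM in *Nmb* neurons and 0 and 4.67 CPM in inhibitory neurons. Of the peptide receptor genes 4 of 34 reached that level, beside 19.4% of all genes, *Tacr1*, the substance P receptor gene, had a UMI in 4 cells and *Oprm1*, the µ-opioid receptor gene, in 1 cell.

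Of the genes of neuronal maturity and axon structure 21 of 22 were at that level, beside 19.4% of all genes. The list is not specific to neurons, and summed to 56005 CPM here and 33435 CPM in microglia. *Nefh* stood at 194 and 584 CPM in 42 cells, 2.26 times the inhibitory level (1.88 to 2.70) and 2.62 times the *Nmb* level (1.95 to 3.56). *Thy1* stood at 822 and 1292 CPM, and *Rbfox3*, which encodes the neuronal nuclear antigen NeuN, at 164 and 139 CPM. Immediate early and stress genes, some of which are induced by dissociation, summed to 493 CPM in the untreated and 266 CPM in the 4OH-tamoxifen cells, and *Fos*, *Egr1* and *Dusp1* were lower than in *Nmb* neurons.

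Between the libraries, the level of many genes differed in these neurons, but the 9 untreated cells give little weight to it. Of 2818 genes with enough UMIs, 402 (14.3%) were at least 2-fold higher in the 4OH-tamoxifen cells and 80 (2.84%) at least 2-fold lower, without a replicate to set them against. The minimum of 20 UMIs in the higher group is 299 CPM in the untreated cells and 73.0 CPM in the 4OH-tamoxifen cells, so fewer genes could be counted as lower. With 299 CPM as the minimum for both, 30 of 629 genes (4.77%) were higher and 26 (4.13%) lower. Among the genes higher in the 4OH-tamoxifen cells, *Cck*, *Cartpt*, *Reln*, *Maf* and *Spp1* had no UMI in the 9 untreated cells, and *Tpbg* stood at 15 against 317 CPM. The level of *Maf* and *Spp1* was higher in cluster 2 than in the other cells, that of *Reln* in cluster 3 that of *Tpbg* in cluster 4 and that of *Cck* in clusters 2 (586 against 96.6 CPM, with 28 of 36 UMIs in 1 cell) and 4 (508 against 128 CPM), and clusters 2 to 4 together held 1 untreated cell. *Nrxn3*, a synaptic adhesion gene, stood at 105 CPM in 4 untreated cells against 478 CPM.

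The genes lower in the 4OH-tamoxifen cells were led by myelin genes. *Mal* stood at 972 against 29.2 CPM, with 64 of its 65 untreated UMIs in the deepest cell, and *Cldn11* at 1271 against 201 CPM, with 83 of 85. Without that cell both turned, to 22.8 against 29.2 CPM for *Mal* and 45.5 against 201 CPM for *Cldn11*, at ratios of 1.28 (0.172 to 56.9) and 4.41 (1.16 to 37.3). *Tac1*, *Zic1*, *Penk* and *Slc17a6*, whose levels are given above, differed less than 2-fold between the libraries, but one untreated cell held 41 of 47 UMIs of *Tac1* and 12 of 14 of *Penk*, and another held 10 of 10 of *Zic1*. Without the cell with the most UMIs of the gene, untreated *Tac1* stood at 102 CPM and *Penk* at 34.0 CPM, *Zic1* had no UMI, and *Slc17a6* stood at 627 CPM.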

How the data were processed

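Per the labels and the study's methods, the authors converted reads with bcl2fastq 2.18.0.12, aligned them to mm10 and counted UMIs with Cell Ranger 2.2.0. The deposited values are raw counts of UMIs per gene (28692 genes) and barcode, before removal of doublets and poor cells. The untreated library holds 18496942 UMIs in 3767 barcodes and the 4OH-tamoxifen library 34704167 in 10241, which limits the precision of sparse genes. Filters, gates and levels were computed with Python 3.11.15, numpy 2.4.6, scipy 1.17.1 and pandas 2.3.3. UMIs were summed per group and library and given per 1000000 (CPM). Doublets were kept, as Scrublet removal was an alternative. Clustering used scanpy 1.11.5 and leidenalg 0.10.2 on log2 of scaled UMIs plus 1, with 15 components, 10 neighbours and resolution 0.7, and a leading gene was ranked by its CPM ratio after 10 CPM was added and was present in at least 30% of the cluster. The genes named are those of the gate, members of the lists, the 15 genes of largest ratio by lower bound in each direction, the 10 per direction between libraries, and the 5 leading genes of each cluster. The members and lists were chosen with earlier results of these data known. Genes beyond that rule were chosen after their values were seen. Promoter windows are RefSeq's. Alternatives changed the gene, mitochondrial and UMI minimums, the gate, doublet removal, the level (averaging over cells rather than summing), thinning, the clustering and the library. Some genes are not reported here.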

Additional observations from a re-analysis of the deposited data

How the results depend on the processing

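No paired analysis was possible because each condition has 1 library and the labels give no replicate numbers. The 71 neurons made up 0.573% of filtered cells, against 0.821% with a minimum of 1200 genes, 0.392% with at most 10% mitochondrial UMIs, 0.420% with at least 2 transporter UMIs and 0.403% with at least 6 UMIs of the neuronal genes. With either library alone the share was 0.269% to 0.685%, and that with *Grp* 0% to 14.5%. The share with *Slc17a7* was 5.63% where 2 UMIs were needed. With at most 10% mitochondrial UMIs, which left 33 of these neurons, 196 inhibitory and 13 *Nmb* neurons, 48 genes were higher and 208 lower than in inhibitory neurons (104 and 124 otherwise), 37 were lower than in *Nmb* neurons (206 otherwise), and the ratio of *Scn1a* over inhibitory neurons turned from 1.34 to 0.972. With either library alone, 42 to 98 genes were higher and 141 to 590 lower than in inhibitory neurons, and 65 to 282 higher and 135 to 166 lower than in *Nmb* neurons. The extremes of 42, 590 and 65 came from the untreated library, with 9 cells. With 1 library a gene also no longer had to lie on the same side in both, so these counts are not like for like. The untreated library alone also turned 3 ratios whose intervals had left out 1, of *Tpbg* (0.302, against 4.85 with 4OH-tamoxifen alone) and *Tshz2* (0.737 against 1.85) over inhibitory neurons, and of *Vip* over *Nmb* neurons (0.419 against 4.61). In members with no *Nmb* UMI the ratio of *Gal* over inhibitory neurons turned from 7.78 to 0.513. The cause of the changes was not tested. Of the main shares, counts and cluster numbers under the alternatives run, 92 stayed within the limits set for them and 14 moved. For single genes 493 stayed, 59 moved and 5 turned, where a ratio counts as turned only if its own interval left out 1. In 4 other cases, all of *Tmem114* or *Vgf* over inhibitory neurons, a ratio whose interval held 1 also crossed it.

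The number of clusters was 4 to 8 over 6 other settings, and at least 8 *Tac1* cells stayed in one cluster. The adjusted Rand index, which is 1 where 2 clusterings are the same, was 0.699 to 0.947 against the clusters reported. At resolution 1.4 only 11 of the 22 cells of cluster 1 stayed together. The alternatives without the glia-led clusters, without the deepest untreated cell or the cell with the most UMIs of a gene, with no *Nmb* UMI in the ratios, with 1 CPM minimum or 1 doublet threshold for both libraries, with 35 peptide genes, and with the retrotrapezoid list without *Nmb* were added after the data were seen. An alternative that kept only cells with fewer than 5 UMIs of oligodendrocyte or of astrocyte genes left 0 members and gave no value. Small counts limit all values from the untreated library: 3 UMIs there are 44.9 CPM, and a share of 0 in 9 cells permits 33.3%.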
